A study of Mus musculus with 6 samples.

Results

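Microglia and neural stem and progenitor cells (NSPCs) of the uninjured subventricular zone (SVZ) were compared in 230 cells, 155 microglia and 75 NSPCs, out of 658 cells in the whole series. The members were taken from the uninjured libraries by the class that the authors' cell table gives, 71 microglia and 16 NSPCs in library 1 and 84 microglia and 59 NSPCs in library 2. A further 4 uninjured cells of mixed class, all in library 2, were left out of the 234 uninjured cells. All mice were adults of the genotype Nestin-CreERT2:R26-yfp on a C57BL/6 N background and had received tamoxifen, so a Cre recombinase driven by the Nestin promoter had switched on a yellow fluorescent protein (YFP) in neural stem cells and, by descent, in their progeny. The uninjured group had no photothrombotic lesion, and the PT D1 and PT D7 groups, with 218 and 190 microglia and NSPCs, were taken 1 day and 7 days after a cortical photothrombosis. The gate for microglia was CD11b+ CD45low and that for NSPCs YFP+, and single cells in wells were profiled with mCEL-Seq2, in which every captured mRNA carries a unique molecular identifier (UMI). How many mice gave each library, and whether the libraries came from separate mice, is not given in the sources used here.

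Microglia are the resident macrophages of the brain. They descend from yolk sac progenitors, depend on the receptor encoded by Csf1r, and are known for surveillance with motile processes, complement production and the uptake and lysosomal breakdown of cell debris. NSPCs of the SVZ are neuroectodermal cells that pass from quiescent type B cells with astroglial features through activated type B cells and dividing type C cells to neuroblasts, which migrate to the olfactory bulb. The comparison sets an immune lineage of the niche beside its neurogenic lineage, in the same libraries and without injury.

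The 6 promoters printed here belong to genes whose levels the results turn on. Each is the stretch of 250 bases that ends just before the start of the gene's canonical transcript in the mouse GENCODE release M39. The bases were read from the GRCm39 genome, 5′ to 3′ on the strand of the gene, and none of the 6 overlaps an annotated exon. Capitals mark GAGGAA or its reverse complement, a core of the sites bound by PU.1, the ETS family factor that Spi1 encodes and that directs myeloid development. Spi1 at chr2:90926191-90926440 (plus strand), Trem2 at chr17:48653179-48653428 (plus strand) and C1qc at chr4:136620377-136620626 (minus strand) are genes higher in microglia that hold the motif. Tmem119 at chr5:113938578-113938827 (minus strand) is a gene higher in microglia without it. Ccnd2 at chr6:127128024-127128273 (minus strand) and Sox11 at chr12:27392574-27392823 (minus strand) are genes higher in NSPCs, with and without the motif.
Spi1: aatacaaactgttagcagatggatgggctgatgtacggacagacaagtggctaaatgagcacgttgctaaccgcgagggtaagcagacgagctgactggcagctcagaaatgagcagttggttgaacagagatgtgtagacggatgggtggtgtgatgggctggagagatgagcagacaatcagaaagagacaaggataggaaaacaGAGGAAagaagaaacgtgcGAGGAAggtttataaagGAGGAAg
Trem2: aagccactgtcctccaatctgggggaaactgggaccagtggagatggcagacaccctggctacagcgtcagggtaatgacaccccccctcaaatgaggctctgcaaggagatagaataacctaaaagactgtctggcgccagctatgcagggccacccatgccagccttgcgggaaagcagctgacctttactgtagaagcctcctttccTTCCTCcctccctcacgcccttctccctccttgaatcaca
C1qc: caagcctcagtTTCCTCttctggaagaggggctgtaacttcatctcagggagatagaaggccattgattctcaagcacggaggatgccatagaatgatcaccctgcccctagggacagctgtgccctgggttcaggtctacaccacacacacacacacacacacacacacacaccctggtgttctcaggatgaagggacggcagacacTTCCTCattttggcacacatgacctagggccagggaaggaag
Tmem119: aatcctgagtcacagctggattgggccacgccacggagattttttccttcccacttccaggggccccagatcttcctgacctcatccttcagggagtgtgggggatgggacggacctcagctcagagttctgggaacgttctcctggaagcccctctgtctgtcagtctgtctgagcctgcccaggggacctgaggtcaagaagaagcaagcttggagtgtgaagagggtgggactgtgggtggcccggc
Ccnd2: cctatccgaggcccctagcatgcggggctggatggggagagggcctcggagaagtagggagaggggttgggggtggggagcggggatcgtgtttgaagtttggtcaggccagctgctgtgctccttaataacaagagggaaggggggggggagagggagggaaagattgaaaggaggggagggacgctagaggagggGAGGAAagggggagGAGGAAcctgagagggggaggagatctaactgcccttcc
Sox11: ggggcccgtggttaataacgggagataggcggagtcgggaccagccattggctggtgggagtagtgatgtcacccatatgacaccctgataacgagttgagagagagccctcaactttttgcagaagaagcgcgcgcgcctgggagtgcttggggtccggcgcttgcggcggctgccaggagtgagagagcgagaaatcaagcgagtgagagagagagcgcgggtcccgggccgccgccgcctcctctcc
The Spi1 window held 3 matches, all within 43 bases of the start, and the C1qc and Ccnd2 windows held 2 each. Trem2 had 1 match, 40 to 35 bases before its start.

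The depth of the sums and the makeup of the sorted cells bear on every value. Pooling all cells of a class within a library gave sums of 364288 and 468186 UMIs for microglia and 116190 and 497292 UMIs for NSPCs of libraries 1 and 2. The median cell held 5247 UMIs in microglia and 7002 in NSPCs, and, with every cell thinned to 1000 UMIs, 493 and 569 genes. Median mitochondrial shares were 7.32% and 12.4% of UMIs. The median microglia held 10 of 10 microglial markers in both libraries, and the median NSPC 4.5 and 5 of 10 NSPC markers beside 2 microglial ones. In library 2, 32 of 84 microglia and 26 of 59 NSPCs held at least 3 markers of the other class, against 6 of 71 and 5 of 16 in library 1. The libraries use the same set of well barcodes, and 75 barcode numbers occurred in both. In runs of 8 barcode numbers, 153 of 155 microglia fell in the first 4 and 75 of 75 NSPCs in the last 4, so the class followed the position of the well. The part of well position in any difference between the classes cannot be told apart from that of the class. Gm10800, a predicted gene, took 27.6% and 27.1% of the UMIs of microglia and 13.3% and 16.9% of those of NSPCs.

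Markers of cells outside both gates were also followed. Choroid plexus markers summed to 14260 and 6264 CPM in microglia and 1325 and 3549 CPM in NSPCs, and 4 of the 5 tested members of that list of 12 were called higher in microglia. Ttr, the transthyretin of choroid plexus epithelium, made up most of this with 13008 and 5476 CPM against 1187 and 3042 CPM. Oligodendrocyte markers summed to 1292 and 1364 CPM in microglia and 282 and 1137 CPM in NSPCs, and 3 of 8 tested members (Mbp, Trf and Mal) were called higher in microglia. DESeq2 called 2 of the choroid plexus and 1 of the oligodendrocyte genes. Markers of border macrophages reached 421 and 528 CPM in microglia, with the mannose receptor gene Mrc1 at 90.7 and 64.6 CPM and with 0 UMIs in NSPCs. Mural cell markers stood at 417 CPM in the microglia of library 1 and between 14.5 and 32.9 CPM in the other sums. None of the listed markers of ependymal cells, oligodendrocyte precursors, endothelial cells, lymphocytes or neurons had enough counts to be tested. Ighm, an immunoglobulin heavy chain gene outside these lists, was called higher in microglia. It stood at 123 and 160 CPM there with 0 UMIs in NSPCs, and DESeq2 did not call it. Monocyte markers summed to 294 and 449 CPM in microglia and 65.2 and 150 CPM in NSPCs, with Lyz1 called higher in microglia and Vcan in NSPCs. The 1 neutrophil marker tested, Cxcr2, was not called, and the 1 erythrocyte marker tested, Hba-a1, was called higher in microglia. The part of these cells or of their free RNA in the results was not tested.

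Microglia and NSPCs differed in 2996 of 6567 genes tested, of which 1602 were higher in microglia and 1394 higher in NSPCs. These shares, 45.6% of all genes tested in either direction, 24.4% higher in microglia and 21.2% higher in NSPCs, are the background for every list below. Enough counts in the sums of 1 class sufficed for a gene to be tested. The tested members of a list are therefore partly chosen by the class in which they are high. The test was edgeR's quasi-likelihood F-test on the 4 sums with the library as a block, and a gene was called at a Benjamini-Hochberg adjusted p under 0.05. A log2 fold change is positive where a gene was higher in microglia, and CPM are UMIs per 1000000 UMIs of the tested genes after TMM scaling. Errors are standard errors (SE) of the fit with 2 libraries, and they rest on a spread pooled over all genes. Neither these errors nor the confidence intervals of log2 fold changes show how far the libraries differed for a single gene. By the fitted fold, 897 called genes were at least 4-fold higher in microglia and 765 at least 4-fold higher in NSPCs. Fitted differences of 16-fold or more were found in 347 genes higher in microglia and in 133 higher in NSPCs. These numbers include genes with 0 UMIs in the other class, at least 33 of them among the 133. For such genes the counts alone may bear out a smaller fold. The microglial sums and the NSPC sums did not overlap for 2978 of the 2996 called genes, beside 73.5% of all genes tested. DESeq2 called 951 genes, 648 higher in microglia and 303 higher in NSPCs, and all of them were among the edgeR calls with the same direction. In a fit with the PT libraries, 1539 of 4736 genes were called without uninjured library 1 and 1161 of 4399 without uninjured library 2. The classes were assigned by the authors from the same transcriptomes, so the p values do not show that the classes were found independently of these genes. Each p value sets a difference against a spread between libraries that was pooled over all genes. A small p value therefore does not show that the libraries agreed for that gene. Itgam (CD11b) and Ptprc (CD45) encode the sorted proteins and the Nestin promoter drives the Cre behind the label, so Itgam, Ptprc and Nes bear on the gates and are no independent comparison.

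**Figure D1:**
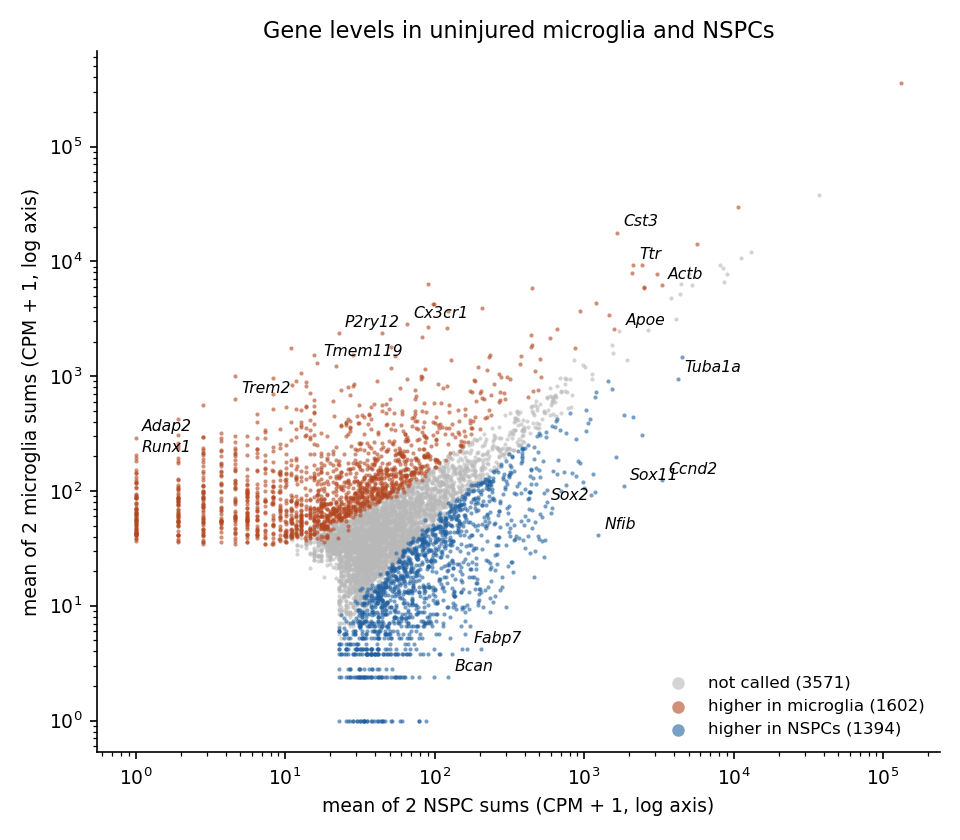
Mean CPM + 1 of the 2 NSPC sums (horizontal, log axis) against that of the 2 microglial sums (vertical, log axis) for the 6567 genes tested, coloured by call. The 1602 genes higher in microglia lie above the diagonal and the 1394 higher in NSPCs below it, and Apoe and Actb lie near it at high levels of both classes.

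Without TMM the log2 fold change of the median gene moved by -0.59, and the share of called genes that were higher in microglia went from 53.5% to 31.4%. Of the 2996 calls 2491 kept their direction and call under that scaling and 0 were called in the opposite direction. Values below are therefore relative to a scale on which the median gene is close to equal in both classes, and small differences depend on it.

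All 25 microglial identity genes were tested and all 25 were higher in microglia, with a median log2 fold change of 5.51. This list was chosen for what microglia are known to express, and the authors' classes rest on the same genes, so its direction is a check of the labels. Tmem119, a transmembrane protein gene used as a microglial marker whose promoter is printed above, stood at 1241 and 1378 CPM in microglia and at 14.5 and 16.5 CPM in NSPCs (log2 fold change 6.36 ± 0.40, adjusted p = 3.1e-52). P2ry12, the ADP receptor that guides microglial processes to damage, stood at 2271 and 2470 CPM against 14.5 and 29.3 CPM (6.57 ± 0.38, adjusted p = 5.7e-61). Csf1r, the receptor for the survival factors CSF1 and IL-34, stood at 3879 and 3581 CPM against 152 and 93.2 CPM (5.01 ± 0.32). The microglial sums lay far above the NSPC sums for all 3 genes, and the 2 microglial sums were close to each other. The NSPC sums lay further apart for P2ry12 and Csf1r. The siglec gene Siglech, at 1110 and 909 CPM in microglia, gave 0 and 7.31 CPM in NSPCs (7.30 ± 0.46). Cst3, the secreted protease inhibitor cystatin C, differed least in the list, with 18850 and 16742 CPM against 1571 and 1775 CPM (3.41 ± 0.28).

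Transcription factors of the myeloid lineage followed the same split. Of 22 tested, 21 were higher in microglia and 1, Sall3, was not called, with a median log2 fold change of 4.88, or 4.00 when genes without any NSPC UMI are set to their lower bound. Spi1, whose promoter is printed above, stood at 163 and 208 CPM in microglia and at 7.24 and 0 CPM in NSPCs, a ratio of 129 with a counting interval of 22.7 to 5138. Runx1, a factor of definitive blood development, was at 171 and 213 CPM in microglia and had 0 UMIs in NSPCs, at least 44.4-fold higher. Irf8, the interferon regulatory factor that microglia need to develop, stood at 472 and 500 CPM against 14.5 and 14.6 CPM (5.04 ± 0.41). Sall1, a zinc finger factor that neural progenitors are also known to use, had a smaller difference, with 323 and 323 CPM in microglia and 36.2 and 45.7 CPM in NSPCs (2.90 ± 0.35). Sall3 stood at 131 and 163 CPM against 65.2 and 119 CPM, which did not pass the test (0.61 ± 0.31, adjusted p = 0.098). DESeq2 called 15 of the 22 and did not call Runx1 (adjusted p = 0.20).

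Among the genes tested, receptors and secreted proteins of innate immunity were higher in microglia with few exceptions. All 9 complement genes tested, out of 19 listed, were higher in microglia (median 4.95). Among them were the subunits of C1q, which starts the classical pathway. C1qa stood at 1811 and 1673 CPM against 7.24 and 12.8 CPM (7.17 ± 0.42), C1qc at 4314 and 4238 CPM against 79.6 and 115 CPM (5.40 ± 0.33), and C1qb at 5878 and 5838 CPM against 478 and 411 CPM (3.73 ± 0.29). The fold was smallest for C1qb. Fc receptors and immunoreceptor adaptors were higher in microglia in 17 of 17 tested genes, out of 22 listed (median 5.46, bounded 5.27). Trem2, the lipid-sensing receptor of the phagocytic programme, stood at 631 and 620 CPM against 0 and 7.31 CPM (6.68 ± 0.47), and its signalling adaptor Tyrobp at 689 and 738 CPM against 14.5 and 12.8 CPM (5.74 ± 0.41). The Fc receptor gene Fcgr3 stood at 998 and 1117 CPM against 14.5 and 9.14 CPM (6.65 ± 0.43). For none of these 6 genes did a microglial sum come near an NSPC sum.

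Toll-like receptors and their partners were called higher in microglia in 10 of 11 tested genes, out of 19 listed (median 5.24, bounded 4.94). Ly86, which encodes the MD-1 partner of CD180, stood at 1948 and 1659 CPM against 29 and 71.3 CPM (4.94 ± 0.34), and Cd180 at 178 and 244 CPM against 0 and 7.31 CPM (5.24 ± 0.50). Tlr7, an endosomal sensor of single-stranded RNA, was at 181 and 180 CPM in microglia with 0 UMIs in NSPCs, at least 41.2-fold higher. Unc93b1, the chaperone that carries such receptors to endosomes, stood at 577 and 488 CPM against 14.5 and 11 CPM (5.39 ± 0.42). Receptors and their chaperone were thus higher in the same class. The adaptor gene Tirap was not called, with 50.8 and 50.5 CPM against 21.7 and 29.3 CPM (0.90 ± 0.52, adjusted p = 0.15).

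Purinergic genes, which sense and clear extracellular nucleotides, were higher in microglia in 8 of 8 tested, out of 13 listed (median 5.07, bounded 4.42). Beside P2ry12, the receptor gene P2ry13 stood at 965 and 932 CPM against 65.2 and 64 CPM (3.86 ± 0.33), and Gpr34, a receptor for lysophosphatidylserine that sits in this list, at 1027 and 918 CPM against 7.24 and 7.31 CPM (6.94 ± 0.45). Entpd1 (CD39), the ectoenzyme that degrades ATP and ADP, stood at 294 and 387 CPM against 14.5 and 12.8 CPM (4.75 ± 0.43). Receptors and the degrading enzyme were called in the same class. Chemokines and their receptors were higher in microglia in 8 of 8 tested genes (median 4.94). The list held 22 genes, and its other members had too few counts to be tested. Cx3cr1, the fractalkine receptor, stood at 2823 and 2877 CPM against 43.4 and 85.9 CPM (5.35 ± 0.34). Ion channel genes described in microglia were higher there in 9 of 10 tested genes (median 3.46, bounded 3.41), and the potassium channel gene Kcnk6 stood at 247 and 247 CPM against 0 and 1.83 CPM, a ratio of 169 with a counting interval of 29.9 to 6722.

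Lysosomal genes were higher in microglia in 29 of 32 tested, with a median log2 fold change of 3.53, or 3.45 with bounds. The cathepsin genes Ctss and Ctsd stood at 4539 and 4033 CPM against 79.6 and 117 CPM (5.36 ± 0.33) and at 2424 and 2938 CPM against 101 and 78.6 CPM (4.97 ± 0.33). Lgmn, the asparaginyl endopeptidase legumain, stood at 1549 and 1535 CPM against 29 and 25.6 CPM (5.84 ± 0.38). General parts of the organelle differed less than these proteases. The membrane protein gene Lamp1 stood at 657 and 643 CPM against 224 and 186 CPM (1.68 ± 0.28), and Npc2, the cholesterol carrier, at 294 and 309 CPM against 86.9 and 82.3 CPM (1.85 ± 0.32). The 3 members that were not called were Laptm4a (0.62 ± 0.29), the sialidase gene Neu1 (0.82 ± 0.61) and Atp6v1a, a subunit of the proton pump, at 120 and 112 CPM in microglia and 116 and 115 CPM in NSPCs (-0.01 ± 0.31, 95% interval -0.62 to 0.61).

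Genes of antigen presentation were higher in microglia in 10 of 13 tested (median 2.97). B2m, the β2-microglobulin gene, stood at 1952 and 2433 CPM against 72.4 and 91.4 CPM (4.73 ± 0.33), and the heavy chain gene H2-D1 at 268 and 362 CPM against 14.5 and 36.6 CPM (3.46 ± 0.37). Class II chain genes were not called, with H2-Aa at 36.3 and 92.6 CPM against 57.9 and 49.4 CPM (0.46 ± 0.43), H2-Ab1 at 25.4 and 56.1 CPM against 43.4 and 16.5 CPM (0.91 ± 0.57), and H2-Eb1 at 47.2 and 95.4 CPM against 21.7 and 53 CPM (0.90 ± 0.44). The sums of the classes overlapped for all 3 class II chains. Cd74, the class II invariant chain, was called higher in microglia at 36.3 and 70.2 CPM against 14.5 and 9.14 CPM (2.50 ± 0.64), which DESeq2 did not call (adjusted p = 0.30).

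The NSPC identity list ran the other way. Of 25 listed genes 23 were tested, 22 were higher in NSPCs and 1 was not called, with a median log2 fold change of -3.25, again a check of labels that rest on such genes. Sox2, a factor of neural stem cell self-renewal, stood at 33 and 112 CPM in microglia and 543 and 552 CPM in NSPCs (-2.90 ± 0.31). Sox11, a factor of newborn neurons, stood at 25.4 and 194 CPM against 1854 and 1838 CPM (-4.22 ± 0.32, adjusted p = 7.4e-38), and Dcx, the microtubule protein of migrating neuroblasts, at 0 and 42.1 CPM against 261 and 358 CPM (-3.77 ± 0.39). NSPC sums lay above microglial sums for all 3 genes, and the microglia of library 2 were above those of library 1. The member that was not called was Slc1a3, the glutamate transporter GLAST and a marker of type B cells and astrocytes, with 250 and 359 CPM in microglia against 362 and 421 CPM in NSPCs (-0.36 ± 0.27, adjusted p = 0.29).

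**Figure D2:**
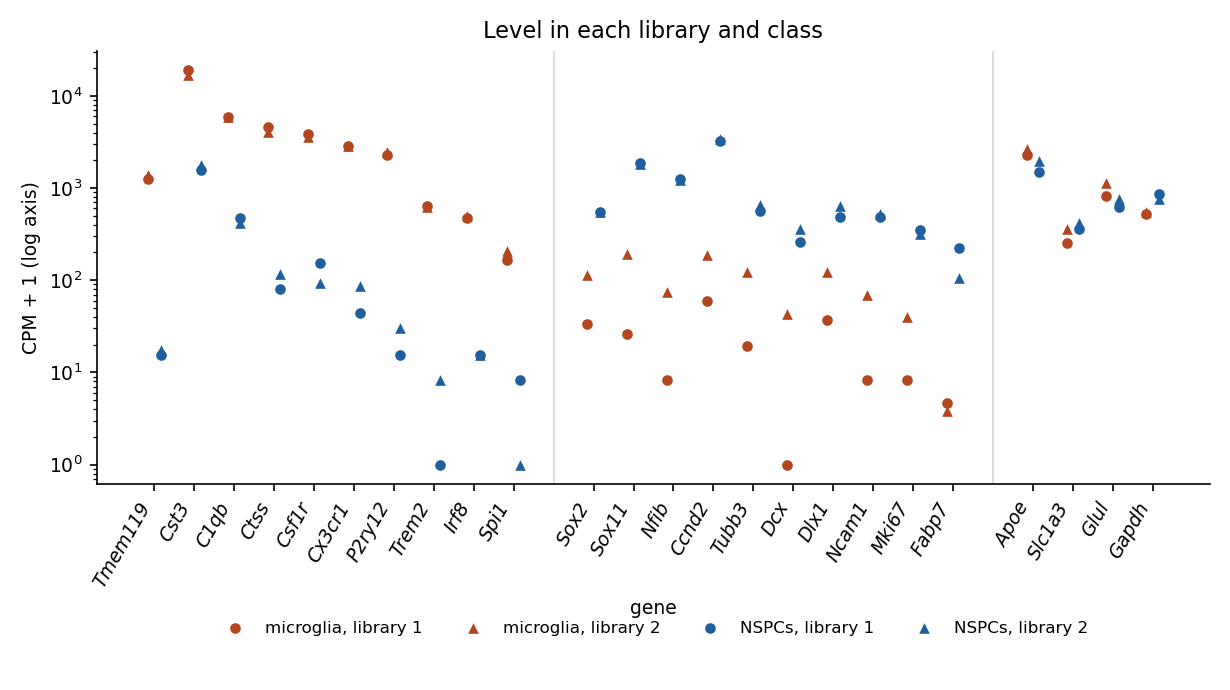
CPM + 1 (log axis) of 24 genes in each library (circles, library 1; triangles, library 2) for microglia and NSPCs, with 10 genes of microglia on the left, 10 of NSPCs in the middle and 4 genes that were not called on the right. For the genes of NSPCs except Fabp7 the microglia of library 2 sit above those of library 1, as for Sox11 at 194 and 25.4 CPM.

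The levels that remained in the other class differed by gene group and by library. Microglial identity genes were left at a median of 1.83% of their microglial level in NSPCs, and NSPC identity genes at 9.25% of their NSPC level in microglia, beside 49.7% for the lower class over all genes tested. Summed NSPC identity genes stood at 769 CPM in the microglia of library 1, which had 16 NSPCs, and at 1774 CPM in those of library 2, which had 59, and 19 of 23 members were higher in the microglia of library 2. Part of the sum lay in 2 cells. Of 632 UMIs of these genes in the 84 microglia of library 2, 115 lay in 2 cells whose barcode numbers fall among those of NSPCs, 85 in an unknown microglial cell and 30 in a homeostatic one, beside at most 20 in any other microglial cell. Of the 69 Sox11 UMIs there, 37 lay in these 2 cells. Per 1000000 UMIs of all genes the sum was 582 in library 1 and 1350 in library 2, which became 1134 without the 2 cells, with 19 of 23 members still higher in library 2. Over all 1394 genes higher in NSPCs this held for 65.5%, beside 57.4% of all genes tested. Summed microglial identity genes in NSPCs stood at 2476 and 2904 CPM. The part of free RNA, of doublets and of barcode exchange between wells in these levels was not tested. Leaving out the cells that held 3 or more markers of the other class lowered the number of genes tested to 4064 and the calls to 1944.

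Neural transcription factors were higher in NSPCs in 32 of 36 tested (median -2.98), and 0 were called higher in microglia. Nfib, a nuclear factor I gene of glial and neuronal differentiation, stood at 7.26 and 73 CPM in microglia and 1238 and 1236 CPM in NSPCs (-4.93 ± 0.34, adjusted p = 2.2e-43), and Nfix at 145 and 205 CPM against 941 and 929 CPM (-2.41 ± 0.28). The homeobox genes of interneuron fate, Dlx1 and Dlx2, stood at 36.3 and 121 CPM against 485 and 644 CPM (-2.86 ± 0.31) and at 18.1 and 87 CPM against 340 and 592 CPM (-3.16 ± 0.34). Factors of glia, of stem cells and of neurons were thus higher in the same class. Tcf4, a partner of proneural factors that many cell types express, had the highest NSPC level of the list and a smaller difference, with 421 and 494 CPM against 1781 and 1920 CPM (-2.02 ± 0.27). The 4 that were not called were Dlx6 (-0.22 ± 0.51), Hes1 (1.18 ± 0.59), Id2 (0.61 ± 0.32) and Zeb2 (-0.63 ± 0.29).

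Cell cycle genes were higher in NSPCs in 31 of 37 tested (median -2.51), and 2 were higher in microglia. Ccnd2, the cyclin D2 gene whose promoter is printed above, stood at 58.1 and 188 CPM in microglia and 3251 and 3361 CPM in NSPCs (-4.82 ± 0.32, adjusted p = 3.0e-48). Top2a, the topoisomerase of dividing cells, stood at 7.26 and 64.6 CPM against 572 and 477 CPM (-3.76 ± 0.35), and the proliferation marker gene Mki67 at 7.26 and 39.3 CPM against 348 and 313 CPM (-3.69 ± 0.38). The other D cyclin that was tested went against them, with Ccnd1 at 54.4 and 95.4 CPM in microglia and 29 and 5.49 CPM in NSPCs (2.87 ± 0.57), and so did the inhibitor gene Cdkn1c at 43.5 and 39.3 CPM against 0 and 11 CPM (2.24 ± 0.69). DESeq2 called 12 cell cycle genes, all higher in NSPCs, and neither Ccnd1 (adjusted p = 0.17) nor Cdkn1c (adjusted p = 0.28). Chromatin and high-mobility group genes were higher in NSPCs in 27 of 31 tested (median -1.68, 14 by DESeq2). Hmgb2 and Hmgn2 stood at 58.1 and 222 CPM against 1310 and 978 CPM (-3.07 ± 0.30) and at 50.8 and 132 CPM against 1079 and 1135 CPM (-3.61 ± 0.31).

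Tubulins and microtubule proteins were higher in NSPCs in 19 of 23 tested, with 0 higher in microglia and a median of -3.17. Tuba1a, the α-tubulin of young neurons, stood at 773 and 1131 CPM in microglia and 4525 and 3977 CPM in NSPCs (-2.17 ± 0.27). Stmn1, the tubulin-binding stathmin, stood at 98 and 298 CPM against 1839 and 1450 CPM (-3.12 ± 0.29), and Tubb3, the neuronal β-tubulin, at 18.1 and 121 CPM against 565 and 655 CPM (-3.17 ± 0.32). The actin system went mostly the other way, with 23 of 30 genes higher in microglia, 4 higher in NSPCs and a median of 1.44. Tmsb4x, which holds actin monomers, stood at 5987 and 5675 CPM in microglia and 2339 and 2697 CPM in NSPCs (1.21 ± 0.26), and Actb at 6059 and 6422 CPM against 3164 and 3434 CPM (0.92 ± 0.26). Both genes were abundant in both classes, and the median of the actin list lay nearer to zero than that of the tubulin list. The 4 against the majority were Actg1 (-0.66 ± 0.26), Ezr (-1.50 ± 0.31), Tmsb10 (-3.20 ± 0.32) and Marcksl1 (-2.83 ± 0.30). Without TMM 16 actin genes were higher in microglia and 6 in NSPCs, and DESeq2 called 16 and 2, with Actg1 (adjusted p = 0.34) and Ezr (adjusted p = 0.11) not among them.

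**Figure D3:**
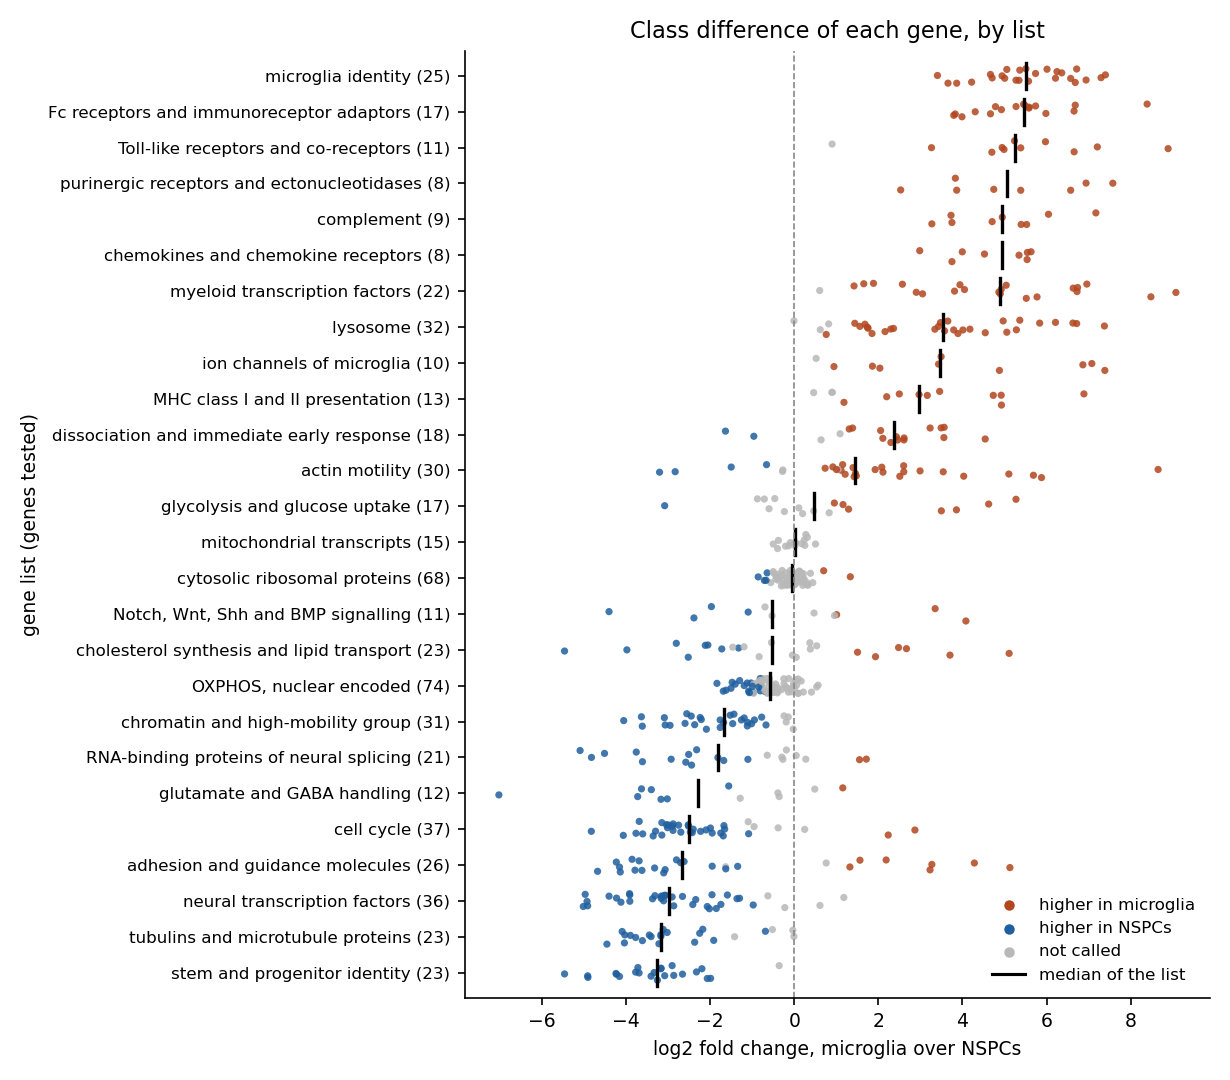
Log2 fold change of each tested gene (points, horizontal) by gene list (rows, with the number of genes tested), coloured by call, with the list's median as a bar. Myeloid lists lie to the right, with medians up to 5.51 for microglial identity, and tubulin, neural transcription factor and NSPC identity lists to the left, down to -3.25.

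Adhesion and guidance molecules were called in 24 of 26 genes, 17 higher in NSPCs and 7 in microglia (median -2.66), against 12 calls by DESeq2. Ncam1, the neural cell adhesion molecule gene, stood at 7.26 and 67.4 CPM in microglia and 485 and 516 CPM in NSPCs (-3.69 ± 0.35), and Ptprz1, the receptor phosphatase for pleiotrophin, at 10.9 and 44.9 CPM against 434 and 428 CPM (-3.86 ± 0.36). The members higher in microglia were 5 integrin genes with Cntn1 and Plxnb2. Itgb5 stood at 573 and 671 CPM against 7.24 and 21.9 CPM (5.13 ± 0.40), Itgb2 at 316 and 449 CPM against 14.5 and 54.9 CPM (3.27 ± 0.35), and Itga6, a laminin receptor subunit also used as a stem cell marker, at 221 and 199 CPM against 7.24 and 11 CPM (4.28 ± 0.45). Within this list the integrins tested were on the microglial side, and the neural adhesion and guidance receptors were mostly on the NSPC side, with Cntn1 and Plxnb2 against them. Cntn1 (2.19 ± 0.65) and Plxnb2 (1.33 ± 0.31) were not called by DESeq2, with adjusted p of 0.23 and 0.21.

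RNA-binding proteins of neural splicing were higher in NSPCs in 13 of 21 tested and higher in microglia in 2 (median -1.81). Msi2, a musashi protein of progenitors, stood at 83.5 and 87 CPM in microglia and 405 and 446 CPM in NSPCs (-2.32 ± 0.31). The exceptions were Qk, the quaking gene known from myelinating glia, at 903 and 982 CPM against 232 and 410 CPM (1.55 ± 0.28), and Ptbp3 at 174 and 219 CPM against 57.9 and 64 CPM (1.72 ± 0.32). Of 11 tested genes of Notch, Wnt, Shh and BMP signalling, 4 were higher in NSPCs and 3 in microglia (1 and 2 by DESeq2). Id4, an inhibitor of proneural factors linked to stem cell quiescence, stood at 7.26 and 14 CPM against 188 and 283 CPM (-4.40 ± 0.44). The Notch regulators Numb and Dtx4 were on the microglial side, at 134 and 135 CPM against 7.24 and 14.6 CPM (3.35 ± 0.47) and at 152 and 149 CPM against 0 and 11 CPM (4.08 ± 0.50). Most genes of this list, 18 of 29, had too few counts to be tested.

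Metabolic lists did not favour 1 class throughout. Glycolysis and glucose uptake genes were higher in microglia in 7 of 17 tested, higher in NSPCs in 1 and not called in 9, with a median of 0.46 that turned to -0.14 without TMM, when 4 were higher in microglia and 5 in NSPCs. DESeq2 called 3 higher in microglia and 1 in NSPCs. Hk2, a hexokinase, stood at 261 and 213 CPM in microglia and 7.24 and 9.14 CPM in NSPCs (4.62 ± 0.45), and Slc2a5, the fructose transporter GLUT5, at 236 and 236 CPM against 0 and 7.31 CPM (5.27 ± 0.49). Aldoc, the aldolase of astroglia, was the member higher in NSPCs, with 36.3 and 81.4 CPM against 565 and 475 CPM (-3.08 ± 0.32). Gapdh, which is often taken as a reference gene, stood at 526 and 544 CPM against 869 and 762 CPM and just missed the threshold (-0.60 ± 0.26, adjusted p = 0.050). Genes of cholesterol synthesis and lipid transport were higher in microglia in 6 of 23 tested and higher in NSPCs in 8, and DESeq2 called 3 in each direction. The exporters Abca1, Abcg1 and Abca9 and the receptor genes Lrp1 and Sort1 were on the microglial side, for example Lrp1 at 341 and 331 CPM against 36.2 and 71.3 CPM (2.48 ± 0.33). Synthesis enzymes such as Hmgcs1, Idi1, Fdps and Fdft1, the desaturase gene Scd2 and the fatty acid carriers Fabp5 and Fabp7 were on the NSPC side. Other enzymes of the pathway such as Sqle and Cyp51 were not called. The 3 genes that DESeq2 called higher in NSPCs were Scd2, Fabp5 and Fabp7, so it called none of the synthesis enzymes. Apoe, the lipid carrier of astroglia and of activated microglia, stood at 2286 and 2678 CPM against 1499 and 1940 CPM and was not called (0.53 ± 0.26, adjusted p = 0.080).

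Genes of glutamate and GABA handling were higher in NSPCs in 7 of 12 tested and higher in microglia in 1 (3 and 0 by DESeq2). Slc1a2, the glutamate transporter GLT-1, stood at 58.1 and 135 CPM in microglia and 854 and 1505 CPM in NSPCs (-3.63 ± 0.31), and Gad2, a GABA-synthesizing enzyme, at 32.7 and 73 CPM against 167 and 166 CPM (-1.56 ± 0.34). Glul, the glutamine synthetase gene, stood at 813 and 1128 CPM against 623 and 755 CPM and was not called (0.49 ± 0.26). A receptor subunit gene went against the list, with Gabra2 at 90.7 and 78.6 CPM in microglia and 29 and 40.2 CPM in NSPCs (1.16 ± 0.44, DESeq2 adjusted p = 0.46).

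Genes that respond to dissociation and to immediate stimuli were higher in microglia in 14 of 18 tested, with a median of 2.37, and 2 were higher in NSPCs (9 and 1 by DESeq2). Rhob, an endosomal GTPase gene, stood at 958 and 1050 CPM against 57.9 and 102 CPM (3.57 ± 0.32), and Jun at 689 and 749 CPM against 268 and 311 CPM (1.31 ± 0.27). Those higher in NSPCs were the chaperone genes Hsp90aa1 (-1.63 ± 0.27) and Hspa8 (-0.96 ± 0.28), and Jund (0.64 ± 0.29) and Dusp1 (1.09 ± 0.53) were not called. Cells of both classes went through the same papain digestion, and its part in the difference was not tested.

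Mitochondrial transcripts and cytosolic ribosomal protein genes were rarely called on the TMM scale by edgeR. None of 15 mitochondrial transcripts was called by edgeR, with log2 fold changes between -0.50 and 0.51, and none by DESeq2, while 8 were higher in NSPCs without TMM. Of 68 ribosomal protein genes 2 were higher in microglia (Rps29, 0.70 ± 0.27, and Rpl10, 1.33 ± 0.43) and 4 higher in NSPCs, and without TMM 31 were higher in NSPCs and 0 in microglia, while DESeq2 called 0. Of 74 nuclear genes of oxidative phosphorylation 20 were higher in NSPCs and 0 in microglia (median -0.57). Over all genes tested 21.2% were higher in NSPCs and 24.4% in microglia. The NSPC share of this list thus lay near that of all genes tested. The number higher in NSPCs became 55 without TMM and 0 by DESeq2. Atp5b, a subunit of ATP synthase, stood at 290 and 191 CPM in microglia against 514 and 413 CPM in NSPCs (-0.98 ± 0.28). Of 79 genes with at least 500 CPM in both classes, 1 had a 95% interval of its log2 fold change within 0.5 of zero. This was mt-Rnr2, the mitochondrial large ribosomal RNA, at 43936 and 32484 CPM against 38684 and 35994 CPM (0.02, interval -0.46 to 0.50). Without TMM its log2 fold change was -0.60, and at least 1 of the alternatives called it. Its interval on the TMM scale nearly filled the allowed range, so only estimates very close to zero could pass. A gene that did not pass is therefore not shown to differ between the classes.

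The largest fitted log2 fold changes towards microglia were in genes without a single NSPC UMI. Counts give only a lower bound for such genes, so they are not shown to differ more than genes with NSPC UMIs. Of the 15 genes with the largest log2 fold changes among those with at least 100 CPM in microglia, 14 had 0 UMIs in all NSPCs, so only a lower bound could be given, set by a floor of 3 counts over the class. Adap2, an Arf GTPase activating protein gene, stood at 305 and 275 CPM and was at least 65.8-fold higher in microglia. Crybb1, a crystallin gene known from immature microglia, was at least 46.6-fold higher, and the interferon-inducible Trim30a at least 34.7-fold higher. For the other genes without NSPC UMIs the bound lay between 24.6 (Gpr183 and Ecscr) and 44.4 (Runx1), with Irf5, a factor downstream of Toll-like receptors, at 28.9 and the co-stimulatory receptor gene Cd86 at 29.3. Hpgds, the haematopoietic prostaglandin D synthase, had 428 and 413 CPM in microglia and 0 and 1.83 CPM in NSPCs, a ratio of 287 with a counting interval of 51.1 to 11389. DESeq2 called 3 of these 14, Tlr7, Trim30a and Ecscr, and gave adjusted p of 0.16 to 0.27 for the rest. The intervals cover counting error only.

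Each of the 15 genes with the largest fitted differences towards NSPCs, among those with at least 100 CPM in NSPCs, had at least 1 UMI in microglia. A further 33 called genes below that level had larger fitted differences than any of the 15, and all 33 had 0 UMIs in microglia. Bcan, the proteoglycan brevican of neural extracellular matrix, stood at 0 and 2.81 CPM in microglia and 109 and 135 CPM in NSPCs, a ratio of 82.1 with a counting interval of 14.4 to 3279. Lhx2, a LIM homeobox gene of forebrain progenitors, stood at 3.63 and 2.81 CPM against 282 and 122 CPM (ratio 48.9, 13.2 to 409), and Fabp7, the brain lipid binding protein of radial glia, at 3.63 and 2.81 CPM against 224 and 104 CPM (ratio 40.6, 10.9 to 340). The 15 genes included the transcription factor genes Pou3f4, Dlx5, Lhx2, Nfib and Camta1. Plpp3, a lipid phosphatase of astroglia, stood at 10.9 and 22.5 CPM against 391 and 538 CPM (-4.75 ± 0.40).

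Motif GAGGAA was counted in the windows of 250 bases before the start of protein-coding genes, on both strands, as were the motifs named below, whose matches may share bases with it. It occurred in 22.9% of 21751 protein-coding genes and in 23.6% of 5905 tested ones. Among genes higher in microglia the share was 26.9%, and among those at least 16-fold higher it was 34.5% (111 of 322). Among genes higher in NSPCs it was 20.8%, and among those at least 16-fold higher 20.3% (24 of 118). Most strongly microglial genes lacked the motif in this window, as Tmem119 does. ACAAAG, a core of SOX sites, occurred in 15.9% of all protein-coding genes and in 13.4% of tested ones. It was found in 12.9% of genes higher in microglia and 17.4% of those at least 16-fold higher, against 15.2% and 16.1% for NSPCs. The E-box CAGCTG occurred in 11.9% of all and 10.2% of tested genes, in 12.2% of genes higher in microglia and 16.1% of those at least 16-fold higher, against 11.1% and 13.6% for NSPCs. For each of the 3 motifs the share was highest in the strongly microglial group, so a higher share there was not seen for GAGGAA alone. Over all called genes the microglial share was above the NSPC share for GAGGAA and CAGCTG and below it for ACAAAG. The differences between shares were not tested. These shares describe letters in a window, not binding.

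Ligands and receptors were compared for 86 listed pairs, of which 33 had both genes tested. In 9 of these both partners were higher in microglia, in 5 both were higher in NSPCs, in 6 the ligand was higher in microglia and the receptor in NSPCs, and in 4 the reverse. DESeq2 called both partners in 6, 2, 2 and 3 of these pairs. Of the pairs from microglia to NSPCs, Igf2 stood at 167 and 213 CPM in microglia against 43.4 and 85.9 CPM in NSPCs (1.46 ± 0.32), and its receptor gene Igf1r at 65.3 and 109 CPM against 145 and 243 CPM (-1.15 ± 0.31). DESeq2 called neither gene (adjusted p = 0.12 and 0.34). Psap, the saposin precursor, stood at 896 and 923 CPM against 181 and 188 CPM (2.30 ± 0.29), and its receptor gene Gpr37l1 at 0 and 11.2 CPM against 57.9 and 95.1 CPM (-3.55 ± 0.64). The growth factor gene Tgfa stood at 58.1 and 33.7 CPM against 0 and 7.31 CPM (2.73 ± 0.74), and Egfr, a receptor of activated type B cells, at 3.63 and 11.2 CPM against 138 and 91.4 CPM (-3.72 ± 0.57). By DESeq2 Tgfa was not called (adjusted p = 0.19). The other pairs in this direction were Gas6 and Pros1 with Tyro3, and Sema4d with Plxnb1. The pairs that DESeq2 called in both partners were Psap with Gpr37l1 and Sema4d with Plxnb1. Gas6 and Pros1, ligands of the TAM receptors, stood at 167 and 143 CPM against 21.7 and 9.14 CPM (3.58 ± 0.47) and at 192 and 222 CPM against 14.5 and 14.6 CPM (3.84 ± 0.42). Tyro3 was low, at 3.63 and 8.42 CPM against 29 and 25.6 CPM, with an adjusted p of 0.045, while the sister receptor gene Mertk stood at 497 and 525 CPM in microglia against 7.24 and 16.5 CPM (5.16 ± 0.41).

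From NSPCs to microglia the pairs were Clu with Trem2, Mdk with Lrp1, Mif with Cd74 and Hmgb1 with Tlr4. Clu, the apolipoprotein clusterin, stood at 112 and 84.2 CPM in microglia and 681 and 724 CPM in NSPCs (-2.86 ± 0.30). Mdk, the growth factor midkine, stood at 43.5 and 152 CPM against 485 and 382 CPM (-2.11 ± 0.30). These pairs were taken because ligand and receptor lay on opposite sides. Of the receptors, Trem2 and Lrp1 are given above, and Tlr4 stood at 65.3 and 42.1 CPM against 0 and 1.83 CPM. DESeq2 called neither Mif (adjusted p = 0.18) nor Cd74 (adjusted p = 0.30). Mdk and Ptn also pair with Ptprz1, and there both partners were higher in NSPCs, Ptn at 18.1 and 14 CPM against 174 and 210 CPM (-3.59 ± 0.42). The remaining 9 pairs held at least 1 gene that was not called, 5 of them through a ligand such as Apoe beside a receptor higher in microglia. For Apoe with Lrp8 neither gene was called. Lrp8 stood at 18.1 and 50.5 CPM in microglia against 21.7 and 34.7 CPM in NSPCs (0.37 ± 0.56, edgeR adjusted p = 0.62). These are transcript levels, and no contact or protein was measured.

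Related genes of 1 family took opposite sides in some of the pairs listed. Of 34 listed pairs of paralogs 25 had both genes tested, 11 had both genes higher in the same class, 6 had at least 1 gene not called, and 8 were split, in each with the first gene of the pair higher in NSPCs and the second in microglia. The pairs and their order were listed with earlier results of these data known. The shared direction and the number of splits therefore describe this list, not gene families at large. Tmsb10 stood at 50.8 and 75.8 CPM in microglia against 630 and 567 CPM in NSPCs, while Tmsb4x was on the microglial side as given above. Aldoc and Aldoa were split likewise, with Aldoa at 243 and 244 CPM against 72.4 and 115 CPM (1.29 ± 0.31). Marcksl1 stood at 43.5 and 180 CPM against 738 and 786 CPM, and Marcks, the larger protein kinase C substrate, at 1731 and 1757 CPM against 862 and 874 CPM (1.01 ± 0.26). For thymosins, aldolases and MARCKS proteins the 2 sums of a class did not overlap those of the other in either gene. G-protein subunits gave Gnao1 at 25.4 and 28.1 CPM against 203 and 300 CPM (-3.24 ± 0.37) and Gnai2 at 1020 and 929 CPM against 471 and 556 CPM (0.91 ± 0.27), and Gng3 (-3.33 ± 0.60) and Gng5 (0.99 ± 0.33) were split in the same way. The other splits were Ywhae and Ywhah, Ptbp2 and Ptbp3, and Notch1 and Notch2. Among the splits, DESeq2 called both genes only for Tmsb10 and Tmsb4x and for Marcksl1 and Marcks. It did not call Aldoa, Ptbp2, Ptbp3, Ywhae, Gnai2, Gng5, Notch1 or Notch2, and the weakest of these, Notch2, stood at 72.6 and 104 CPM against 29 and 54.9 CPM (1.01 ± 0.40). The sources used here do not say how reads shared by close copies were counted, so folds between near-identical copies are uncertain.

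**Figure D4:**
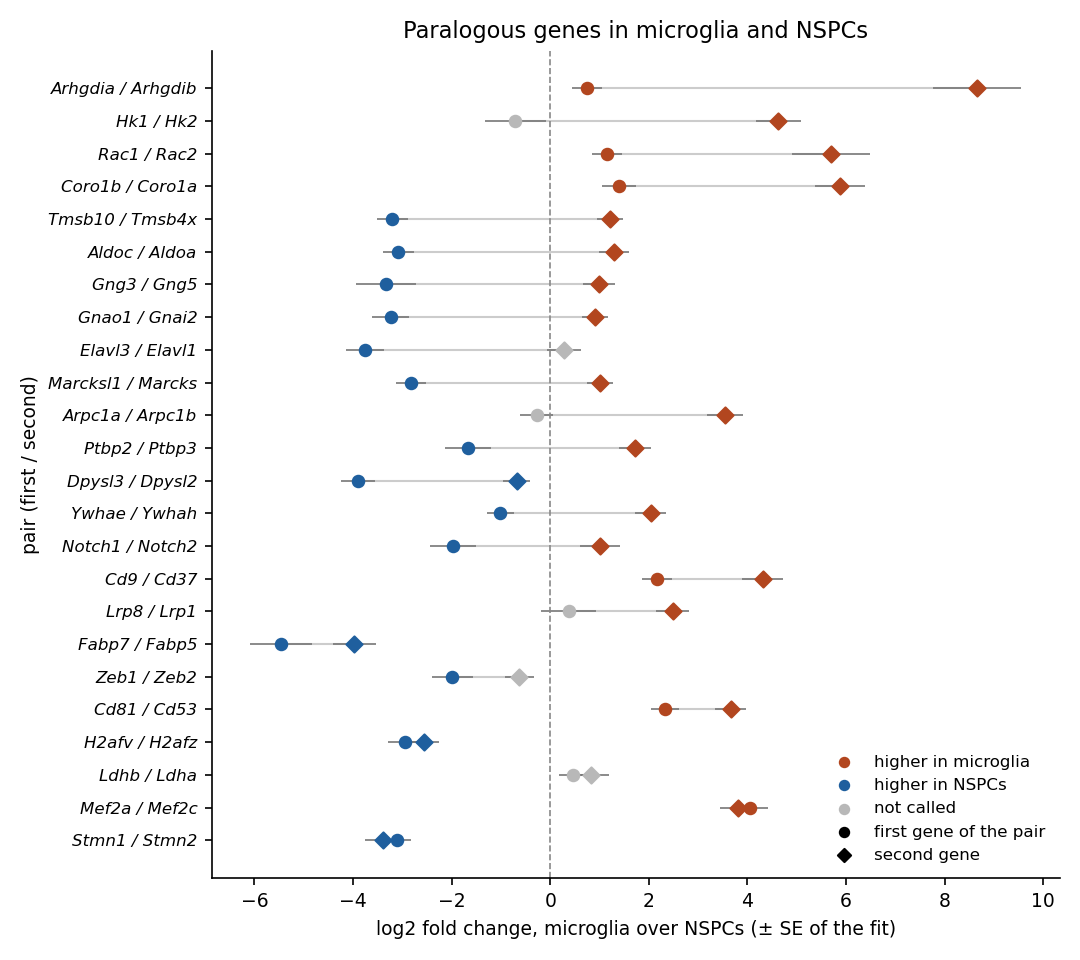
Log2 fold change (horizontal, error bars ± SE of the fit) of both genes in 24 of the 25 pairs of paralogs with both genes tested, the other pair not being shown here, with circles for the first and diamonds for the second gene, coloured by call. In 8 pairs the points lie on opposite sides of zero with both genes called, as for Tmsb10 at -3.20 and Tmsb4x at 1.21.

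NSPCs are a mixture, and several class differences rested on some of their subclasses. The authors' table divides the uninjured NSPCs into 17 quiescent B cells, 8 activated B cells, 15 C cells and 35 neuroblasts, and the microglia into 124 homeostatic, 22 of unknown type, 6 disease-associated and 3 development-associated cells. UMIs were summed over each subclass of both libraries, with no replicates and no test, and the subclasses were drawn on the same genes. Subclass CPM are per 1000000 UMIs of all genes in those cells, without TMM, and so are on another scale than the class values above. Without TMM differences shift towards NSPCs, so the order of levels that lie close depends on this scale. Slc1a3, not called over all NSPCs, stood at 1872 CPM in quiescent B cells, 405 in activated B cells, 90.4 in C cells and 12.1 in neuroblasts, beside 255 CPM in homeostatic microglia. Apoe stood at 7801 CPM in quiescent B cells and at 582 to 1032 CPM in the other NSPCs, and at 1335 CPM in homeostatic and 9078 CPM in disease-associated microglia. For both genes quiescent B cells lay above homeostatic microglia and neuroblasts below them. Cst3, high in every microglial subclass, also reached 7143 CPM in quiescent B cells against 574 CPM in neuroblasts. Aldoc stood at 2631 CPM in quiescent B cells and at 28.9 to 64.7 CPM in the other NSPCs, close to its 50.8 CPM in homeostatic microglia, and Slc1a2 stood at 6628, 762, 209 and 186 CPM from quiescent B cells to neuroblasts.

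Later stages carried the neurogenic and dividing genes. Mki67 stood at 782 CPM in activated B cells and 709 in C cells, against 25.3 in quiescent B cells and 133 in neuroblasts. Ccnd2 stood at 590, 3666, 5946 and 3968 CPM from quiescent B cells to neuroblasts, so every NSPC subclass lay above the 92.3 CPM of homeostatic microglia. Tubb3 stood at 33.7 CPM in quiescent B cells, beside 44.6 CPM in homeostatic microglia, and at 1366 CPM in neuroblasts. Sox2 differed little among NSPCs, with 538 to 743 CPM, while Sox11 ranged from 160 CPM in quiescent B cells to 3331 CPM in C cells. Thus Sox2 and Ccnd2 were above homeostatic microglia in all 4 subclasses, whereas for Tubb3, Aldoc and Slc1a3 some subclasses were at or below them.

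**Figure D5:**
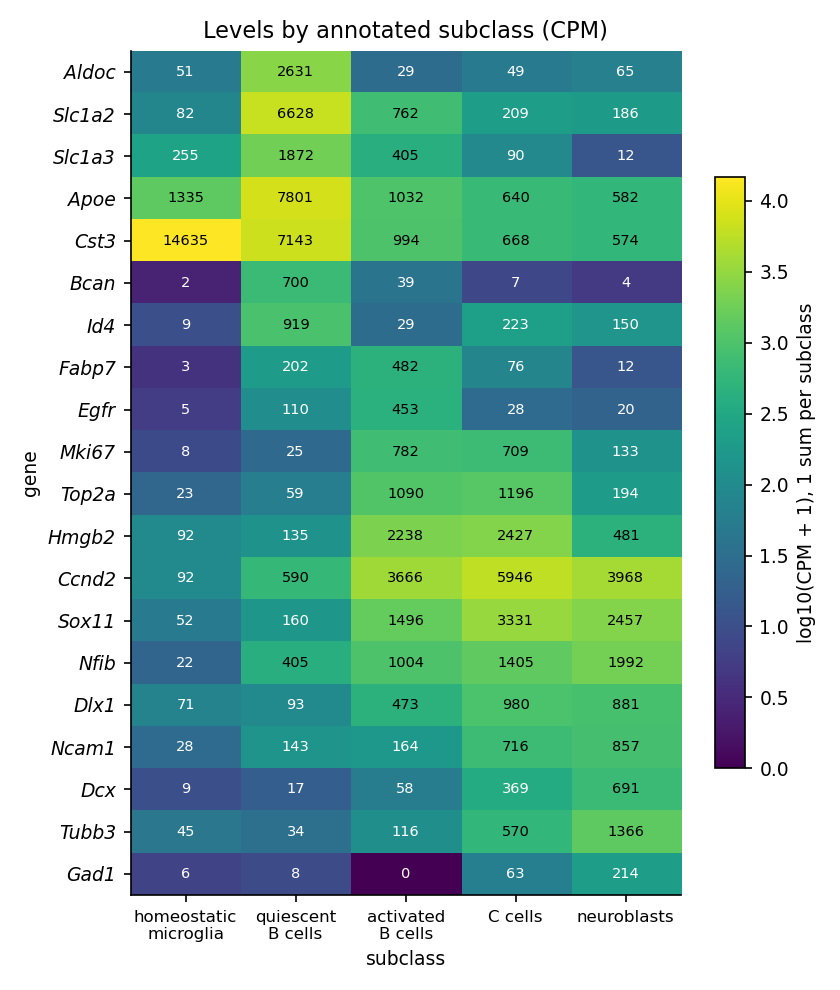
CPM of 20 genes (rows) in homeostatic microglia and the 4 annotated NSPC subclasses (columns), 1 sum per subclass over both libraries, with the colour giving log10(CPM + 1). These CPM are per 1000000 UMIs of all genes, without TMM. Astroglial genes such as Aldoc peak in quiescent B cells at 2631 CPM, Ccnd2 peaks in C cells at 5946 CPM and Tubb3 in neuroblasts at 1366 CPM.

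The 4 libraries after photothrombosis are separate samples, but the authors assigned their classes too from the transcriptomes under comparison. Genes on which the classes rest can keep their direction through that choice, so the shares below are no independent replication. Of 2169 genes that were called without injury and tested in both fits, 96.2%, 95.8%, 96.1% and 97.7% had the same direction in the libraries of PT D1 and PT D7, and 89.1% in all 4. Over all 4616 genes tested in both fits the same was true of 80.5% to 84.0% per library and 59.8% in all 4. In a fit of 12 sums, the class difference depended on the condition in 0 of 4647 genes by edgeR (0.0% of those tested), with 280 at an unadjusted p under 0.05, and in 0 by DESeq2, with 43. With 2 libraries in each condition this does not show that the class difference was the same in all conditions.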

How the data were processed

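SVZ cells were sorted into multiwell plates, and the authors built mCEL-Seq2 libraries from 192 wells each, with barcodes of 6 bases and UMIs of 6 bases. Per the labels, demultiplexing used bcl2fastq 2.17.1.14 and the reference was GRCm39. Which aligner, counter and annotation were used is not given in the sources used here. Counts were deposited as unnormalized UMI counts per gene and cell (34203 rows, of which 92 are ERCC spike-ins with 0 UMIs), made by the authors from cells with over 1000 UMIs, within 3 median absolute deviations and with at most 25% mitochondrial UMIs. The cell table deposited by the authors gives the class, subclass, total counts and percent of mitochondrial UMIs, and 12 of its columns were not used. The number of UMIs behind each sum sets the precision, and counting intervals and floors of 3 counts cover counting error only.

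UMIs were summed per library and class and tested in edgeR 4.0.16 (R 4.3.3) with TMM, filterByExpr with class as the group, library as a block, the quasi-likelihood F-test and Benjamini-Hochberg adjustment over 6567 genes. The 4 sums leave 1 residual degree of freedom, so the spread was pooled over all genes. Both classes of a library were processed together, which pairs them by design. Across 6567 genes the deviations of a library in the classes had a correlation of 0.02. Libraries are the replicates, and since nothing says which mice each came from, the spread between these libraries may be technical. The p values set each difference against that spread as pooled over all genes, not against the spread of the single gene. The standard errors and the confidence intervals of log2 fold changes rest on the same pooled spread. In data simulated for the comparison of microglia with NSPCs, with 200 changed genes, this test recovered 12% of 2-fold changes (5700 genes), 80% of 4-fold changes (5689 genes) and 97% of 8-fold changes (5719 genes). Far fewer genes changed there than were called here, which makes the adjusted threshold stricter in the simulation. These shares may therefore not hold for these data.

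The members, the gene lists and the alternatives were chosen with earlier results of these data known. Genes were named by a rule: the 15 largest called log2 fold changes in each direction with at least 100 CPM in the higher class and no overlap of the sums, up to 4 called members of each list with the highest CPM and any called against the list, ligand and receptor pairs and paralogs with both genes tested, genes of at least 500 CPM whose 95% interval lay within 0.5 of zero, and identity genes with 0 UMIs in the other class, of which there were 0. Csf1r, Tmem119, Siglech, Spi1, Sall1, Sox2, Dcx, Dlx2, Lamp1, Npc2, Gapdh, the class II genes, the cholesterol enzymes, Glul and all genes named as not called were singled out after their values had been seen. Some genes that the rule takes are not reported here by name or value. The alternatives were DESeq2 1.42.0 (Wald test), no TMM, no filter, at least 10 counts in every sum, no block, all 6 libraries in 1 fit, each library left out, cells with a minimum of 2000 UMIs, a maximum of 10% mitochondrial UMIs per cell, thinning of cells to 1000 UMIs, equal numbers of cells, and cells without markers of the other class, without neuroblasts or of microglial cluster 0. A fit without 2 cells against their barcode position, 1 without TMM and without predicted Gm genes, the DESeq2 likelihood ratio test, a robust spread and the sums of NSPC identity genes without those 2 cells were added after seeing the data. Promoters were read from GRCm39 with the mouse GENCODE release M39, in which 6161 of 6567 tested symbols were found.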

Additional observations from a re-analysis of the deposited data

Results flagged for a closer look

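The class difference of 2 genes had opposite signs in every library of the uninjured group and of a PT group. Over 196 named genes tested in all 6 libraries, no difference between conditions passed correction. For Arpc1a, a subunit gene of the Arp2/3 complex that branches actin, the log2 ratio of microglia over NSPCs was -0.613 and -0.171 without injury. It was 0.123 and 0.955 in the PT D1 libraries, and in those of PT D7 it was 0.0057 and 0.0121. The fitted difference from the uninjured group was 0.942 for PT D1 and 0.344 for PT D7. In edgeR's joint quasi-likelihood test of both interaction terms the adjusted p was 0.896. Rpl31, a ribosomal protein gene called higher in NSPCs without injury, had log2 ratios of -0.742 and -0.642 in the uninjured libraries and of 0.187 and 0.386 at PT D7. The fitted difference was 0.985, and the edgeR adjusted p of the interaction was 0.841.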

How the results depend on the processing

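The count of 2996 called genes stayed within 1.5 times under 10 alternatives and was lower under the others. DESeq2 called 951 genes by its Wald test and 905 by its likelihood ratio test, with the same genes tested. Fewer genes were tested with at least 10 counts in every sum (507 called of 1380), with at most 10% mitochondrial UMIs per cell (603 of 2367), with cells thinned to 1000 UMIs (515 of 893), with equal numbers of cells (737 of 1570) and without cells holding 3 or more markers of the other class (1944 of 4064). Leaving out an uninjured library gave 1161 to 1539 calls, with the lone library assumed to vary like the PT libraries. The library pairs the classes, and without the replicate block 3091 genes were called. The interaction between class and condition, with 0 calls, gave 10 with at least 10 counts in every sum, 0 without the block and 0 to 23 when each library was left out in turn, with 23 without library 1 of PT D1, 7 without library 2 of PT D1, 6 without library 2 of PT D7 and 3 without uninjured library 1. Of 226 named genes 211 were called, 115 of them under every alternative that tested them, and 1 changed sign, Gng5, at -0.0703 with cells of at most 10% mitochondrial UMIs, where 2 and 11 NSPCs remained. Of 15 named genes that were not called 9 were called by some alternative. Of changes simulated at 2-fold the test recovered 12%, so a gene that was not called may differ by that much.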

Other observations

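The 2 microglia of library 2 whose barcode numbers lay among those of NSPCs held 1 and 2 of 10 microglial markers and 3 NSPC markers each. One of them, annotated as unknown microglia, had 7422 UMIs with 8.45% mitochondrial, and the other, annotated as homeostatic, had 4757 UMIs with 24.4% mitochondrial. Without both cells 3090 genes were called, 1614 higher in microglia and 1476 higher in NSPCs. All 4 uninjured cells of mixed class had barcode numbers among those of NSPCs. In the PT libraries, 254 of 261 microglia and 146 of 147 NSPCs had barcode numbers among those of their class. The cause of these exceptions was not tested.

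The most abundant genes took a larger share of UMIs in microglia than in NSPCs. The 100 genes with the highest counts held 57.1% and 54.9% of UMIs in the microglia of libraries 1 and 2 and 41.8% and 44.7% in the NSPCs. Predicted genes named Gm and a number held 39.1% and 37.2% of UMIs in microglia and 19.8% and 24.5% in NSPCs.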
